A study of Mus musculus with 21 samples.

Results

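Transforming growth factor beta (TGF-beta) signalling was followed through 9 genes in 21 mouse liver cancer tumours: the ligands Tgfb1, Tgfb2 and Tgfb3, the receptors Tgfbr1 and Tgfbr2, the feedback targets Smad7, Pmepa1 and Skil, and the matrix target Tgfbi. They were taken by name from the array annotation, and each of the 9 had 1 probe set among 22206 tested, which stand for 19505 named genes. The mouse hepatoma line Hepa1-6 had been grown subcutaneously in female mice of strain C57BL/6J, 5 to 6 weeks old. All animals carried the same line and were randomised once a tumour measured 200 mm3. The placebo arm of 6 mice was given the drug vehicle and polyclonal IgG. The lenvatinib arm of 5 mice was dosed by gavage with 10 mg/kg each day, and the anti-PD1 arm of 5 mice had 5 intraperitoneal injections of clone J43 at 10 mg/kg, 3 days apart. The combination arm of 5 mice received both agents. Lenvatinib inhibits VEGF and FGF receptors and related kinases, and the antibody blocks PD-1, an inhibitory receptor of T cells. Tumours were taken at day 13, with the final lenvatinib dose given 2 h earlier and the final antibody injection 1 day earlier. A subcutaneous graft of 1 cell line lacks the surrounding liver, and each piece of tumour held cancer cells together with host cells.

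TGF-beta ligands are made in a latent form that is held in the matrix and on cell surfaces until it is released. The active ligand brings the type II receptor, encoded by Tgfbr2, together with the type I receptor, encoded by Tgfbr1, which phosphorylates SMAD2 and SMAD3. These join SMAD4 and switch on target genes, among them inhibitors that turn the signal down again. In tumours the pathway is known for activating fibroblasts, laying down matrix and restraining T cells.

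The SMAD3 and SMAD4 proteins bind short DNA elements that hold the letters CAGAC. RefSeq promoter windows, 250 bases before an annotated start and 50 from it in build GRCm38.p6, were matched for 5 of the 9 genes, with 2 windows for Tgfbr1. The 250 bases before the start are shown for Tgfbi, the gene with the largest difference between the combination and anti-PD1 arms below, and for Tgfb1, a ligand whose level varied with it over all 21 tumours (r = 0.648) and less closely within the 15 other arrays described below (r = 0.382). Capitals mark CAGAC on either strand, written GTCTG where it lies on the strand not shown. The Tgfb1 run lies at chr7:25686752-25687001 and the Tgfbi run at chr13:56609336-56609585, both on the plus strand.

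Tgfb1: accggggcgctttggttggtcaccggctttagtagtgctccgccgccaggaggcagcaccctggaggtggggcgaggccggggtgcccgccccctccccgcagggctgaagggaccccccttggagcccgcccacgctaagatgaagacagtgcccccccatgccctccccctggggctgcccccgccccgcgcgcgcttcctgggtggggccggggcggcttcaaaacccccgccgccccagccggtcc

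Tgfbi: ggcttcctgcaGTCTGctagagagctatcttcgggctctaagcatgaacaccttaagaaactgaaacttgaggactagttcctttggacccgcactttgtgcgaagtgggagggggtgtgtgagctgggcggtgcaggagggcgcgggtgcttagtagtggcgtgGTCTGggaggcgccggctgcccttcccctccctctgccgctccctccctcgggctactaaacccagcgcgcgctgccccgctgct

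The Tgfbi window held 2 matches, at bases -239 to -235 and -85 to -81 from the start, and the Tgfb1 window held 0. Tgfb2 had 2 matches, Tgfbr2 had 1, and the windows of Tgfbr1 had 0 and 1. The Tgfb2 window and the Tgfbr1 window with 1 match lay at starts inside the gene, not at its outermost start. Of 32851 promoter windows of the same length, 49.6% held CAGAC on either strand. The palindrome GTCTAGAC was in 0.213% of windows. The pattern TGANTCA, where N is any base, so that it is wider than the AP-1 element it includes, was in 7.81%. The 6 windows had 0 matches to either. GTCTAGAC does not contain CAGAC or GTCTG in full, but it shares the letters AGAC and GTCT with them.

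The values are log2 array signals, and a difference of 1 is a 2-fold difference in signal. Array medians lay between 5.32 and 5.49. Over 5222 negative-control rows the median signal was 4.08, and all 21 arrays were above it for 7 of the genes and 20 of 21 for Tgfb2 and Smad7. In 6 arrays (mouse 1 of the combination, mouse 1 of anti-PD1, mice 1 and 2 of lenvatinib, mice 4 and 6 of placebo) the hybridization controls were bright, with a mean of at least 11.33 against at most 10.91 in the other 15. These 6 arrays also had a narrower spread of probe sets, with interquartile ranges of 2.41 to 2.82 against 3.00 to 3.25. Where a difference of the 9 genes printed below moved by over 1.5 times or changed sign on the 15 other arrays, that value is given beside it. Some markers of the hepatocyte lineage were high, with Alb at a mean log2 signal between 10.42 and 12.37 in the 4 arms and Afp between 8.94 and 11.49. Others lay nearer the array medians, with Apoa1 between 5.48 and 6.11 and Hnf4a between 5.25 and 6.61.

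No TGF-beta gene passed the test between arms once p-values were adjusted over all probe sets. With limma over all 21 arrays, 0 of 22206 probe sets (0%) and 0 of the 9 genes passed an adjusted p of 0.05 in any of the 6 pairs of arms, in the interaction of both agents, or in the F test over the 4 arms. At an unadjusted p under 0.05, 3 of the 54 gene-by-pair differences passed. These were Tgfb3 in lenvatinib against placebo, where 6.97% of all probe sets passed, Tgfbi in combination against anti-PD1, where 7.64% did, and Pmepa1 in lenvatinib against anti-PD1, where 4.59% did. None of the 9 passed in anti-PD1 against placebo, combination against placebo or combination against lenvatinib, where 4.07%, 2.31% and 6.4% of probe sets did. In the interaction Tgfbi passed, against 9.02% of probe sets, and in the F test 0 of the 9 did, against 5.69%. By direction alone, 6 of the 9 genes were below 0 in lenvatinib minus placebo (50.9% of all probe sets) and 6 were above 0 in anti-PD1 minus placebo (49.6%) and in combination minus placebo (49.3%), with median differences of -0.17, 0.05 and 0.14. These 3 comparisons share the placebo mice. In combination minus lenvatinib 8 of the 9 were above 0 (48.8%), with a median of 0.35. In combination minus anti-PD1 6 were above 0 (48.1%), in lenvatinib minus anti-PD1 6 were below 0 (48.5%), and in the interaction 7 were above 0 (48.9%), with medians of 0.09, -0.08 and 0.28. These counts did not all hold on the 15 other arrays. There Tgfb1, Tgfb2 and Skil were below 0 in combination minus lenvatinib (-0.12, -0.18 and -0.12). Tgfb2 and Skil were below 0 in combination minus anti-PD1 (-0.035 and -0.11), Tgfbr1 in the interaction (-0.58) and Tgfb1 in anti-PD1 minus placebo (-0.15). Tgfb2 and Smad7 were above 0 in lenvatinib minus anti-PD1 (0.15 and 0.074), and Tgfbr1 in lenvatinib minus placebo (0.59). The arms overlapped in all 54 gene-by-pair comparisons. Of all probe sets, the share that lay wholly above or wholly below placebo was 0.288% and 0.302% for lenvatinib, 0.0901% and 0.374% for anti-PD1, and 0.0766% and 0.189% for the combination. For the combination it was 0.405% above and 0.482% below lenvatinib, and 0.527% above and 0.401% below anti-PD1. For lenvatinib against anti-PD1 it was 0.203% above and 0.239% below. Exact two-sided permutation tests of the 54 differences gave 2 below 0.05 before any adjustment, and 5 against 5 mice cannot give less than 0.00794.

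**Figure D1:**
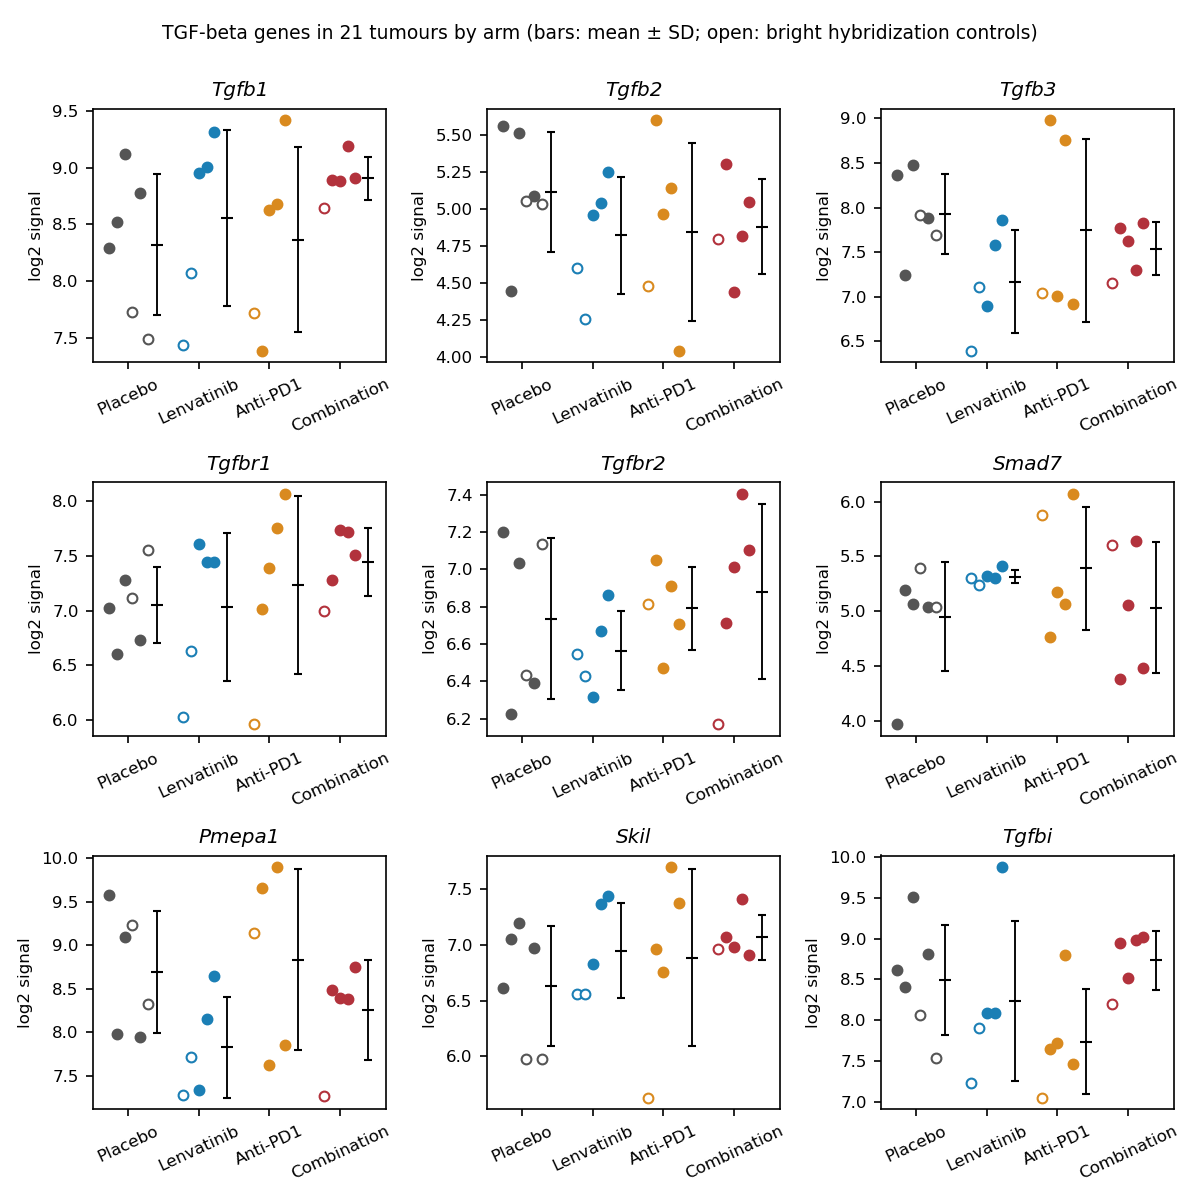
Log2 signal of the 9 genes (vertical axes, 1 panel a gene, each with its own scale) in the 4 arms, 1 point per tumour, with the mean and SD of each arm beside the points and open points for the 6 arrays with bright hybridization controls. Tgfb1 spans 8.65 to 9.19 in the combination arm and 7.39 to 9.42 in the anti-PD1 arm, and the arms overlap in every panel.

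Among the ligands, Tgfb1, the main isoform of immune cells and platelets, had a higher mean in the combination arm than in the others, by less than the spread. In placebo its log2 signal was 7.49 at the lowest, 8.40 at the median and 9.12 at the highest. Under lenvatinib it was 7.43, 8.07, 8.95, 9.0 and 9.32 in mice 1 to 5, and under anti-PD1 7.72, 7.39, 8.63, 8.68 and 9.42. In the combination arm it was 8.65, 8.89, 8.88, 9.19 and 8.91. All 5 combination tumours were above the mean of each other arm, yet only 1 was above every placebo tumour and 0 above every tumour of the single-agent arms. The mean was 8.90 ± 0.19 (SD, n = 5) against 8.32 ± 0.62 (SD, n = 6) in placebo, 8.56 ± 0.78 under lenvatinib and 8.37 ± 0.81 under anti-PD1. Combination minus placebo was 0.58 ± 0.37 (SE; 95% interval -0.18 to 1.35), with an adjusted p of 1 by limma and an exact permutation p of 0.0823. Tgfb1 was lower on the bright-control arrays, at a mean of 7.85 against 8.80 on the others. On the 15 other arrays combination minus placebo was 0.29, and combination minus lenvatinib was -0.12 in place of 0.35. The part of array brightness in these values was not tested.

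Tgfb3, the isoform of mesenchymal tissues and epithelial seams, had a lower mean under lenvatinib than in placebo. In placebo it was 7.24 at the lowest, 7.90 at the median and 8.47 at the highest. Under lenvatinib the 5 tumours read 6.40, 7.10, 6.90, 7.58 and 7.86. All 5 were below the placebo mean and 3 were below every placebo tumour. The anti-PD1 arm split, with 8.98 and 8.75 in mice 2 and 4 against 7.05, 7.01 and 6.92 in the others. The combination tumours lay between, at 7.16, 7.77, 7.63, 7.30 and 7.83. Lenvatinib minus placebo was -0.76 ± 0.36 (SE; 95% interval -1.52 to -0.00), with an unadjusted p of 0.0489, an adjusted p of 0.693 by limma and an exact permutation p of 0.0368. It was -0.54 on the 15 other arrays, and -1.05 between the 2 lenvatinib and 2 placebo tumours with bright controls.

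Tgfb2, an isoform of developing and epithelial tissues, lay near the negative controls. Its lowest placebo, median placebo and highest placebo signals were 4.44, 5.07 and 5.56. The single-agent arms read 4.60, 4.26, 4.96, 5.04 and 5.25 under lenvatinib and 4.48, 5.60, 4.96, 5.14 and 4.04 under anti-PD1, the last value being under the negative-control median. The combination arm read 4.80, 5.30, 4.44, 4.82 and 5.05. The ranges of the 4 arms overlapped, and the differences from placebo were -0.29 ± 0.26, -0.27 ± 0.26 and -0.24 ± 0.26 (SE) for lenvatinib, anti-PD1 and the combination. On the 15 other arrays the lenvatinib difference was -0.068, and the others were -0.21 and -0.25.

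Neither receptor separated the arms. Tgfbr1, the kinase that carries the signal, was 6.60 at the lowest, 7.07 at the median and 7.55 at the highest in placebo. It was 6.03, 6.63, 7.60, 7.44 and 7.44 under lenvatinib, 5.97, 7.01, 7.38, 7.75 and 8.06 under anti-PD1, and 7.0, 7.27, 7.73, 7.71 and 7.50 in the combination arm. The lowest tumour of each single-agent arm had a bright-control array. The combination minus placebo difference was 0.39 ± 0.32 (SE; 95% interval -0.28 to 1.07), and 2 of 5 combination tumours were above every placebo tumour. On the 15 other arrays it was 0.65. Lenvatinib minus placebo was -0.02 ± 0.32 over all arrays, 0.59 on the 15 other arrays and -1.0 among the bright-control ones, so its direction differed between the sets of arrays.

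Tgfbr2, which binds the ligand, was the least variable of the 9, with an SD within arms of 0.36 against a median of 0.40 over all probe sets. In placebo it was 6.23 at the lowest, 6.73 at the median and 7.20 at the highest. Lenvatinib tumours read 6.55, 6.43, 6.32, 6.67 and 6.86, anti-PD1 tumours 6.81, 7.05, 6.47, 6.91 and 6.71, and combination tumours 6.17, 6.71, 7.01, 7.41 and 7.10. The combination held both the lowest and the highest tumour of the study. Combination minus lenvatinib was 0.32 ± 0.23 (SE; 95% interval -0.16 to 0.79).

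Of the feedback targets, Pmepa1, which keeps receptor-activated SMADs from the receptor, had the largest SD within arms of the 9, 0.74 on the log2 scale. In placebo it was 7.95 at the lowest, 8.71 at the median and 9.57 at the highest. Under lenvatinib it was 7.28, 7.72, 7.33, 8.15 and 8.65. All 5 lenvatinib tumours were below the placebo mean, and 3 were below every placebo tumour. The anti-PD1 arm split again, with 9.14, 9.65 and 9.90 in mice 1, 2 and 4 against 7.62 and 7.85 in mice 3 and 5, so that mouse 1 was high here and low for Tgfb3. The combination arm read 7.27, 8.49, 8.39, 8.38 and 8.74, with mouse 1 apart from the other 4. Lenvatinib minus placebo was -0.86 ± 0.42 (SE; 95% interval -1.74 to 0.01), with an adjusted p of 0.693 by limma and an exact permutation p of 0.0606. It was -0.60 on the 15 other arrays and -1.28 among the bright-control ones. Lenvatinib minus anti-PD1 was -1.01 ± 0.44 (SE), with an unadjusted p of 0.0319 and an adjusted p of 0.955 by limma, and an exact permutation p of 0.103. Combination minus placebo was -0.44 ± 0.42, -0.19 without combination mouse 1 and -0.15 on the 15 other arrays.

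Smad7, which blocks the type I receptor, had a low signal and an even level under lenvatinib. Its placebo tumours were 3.97 at the lowest, 5.05 at the median and 5.40 at the highest, and the lowest of these, mouse 1, was under the negative-control median. The 5 lenvatinib tumours read 5.31, 5.24, 5.32, 5.30 and 5.41, a mean of 5.32 ± 0.06 (SD). Anti-PD1 tumours read 5.88, 4.76, 5.18, 5.07 and 6.07, and combination tumours 5.60, 4.38, 5.06, 5.64 and 4.48. Lenvatinib minus placebo was 0.36 ± 0.28 (SE) and 0.17 without placebo mouse 1. Combination minus placebo was 0.08 ± 0.28, and -0.12 without that mouse. The interaction was -0.73 ± 0.41 (SE), with an adjusted p of 0.644 by limma.

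Skil encodes SnoN, a repressor that SMAD signalling first degrades and then induces. It was 5.98 at the lowest, 6.79 at the median and 7.20 at the highest in placebo. Lenvatinib tumours read 6.55, 6.56, 6.83, 7.36 and 7.44, anti-PD1 tumours 5.63, 6.96, 6.76, 7.70 and 7.38, and combination tumours 6.96, 7.07, 6.98, 7.41 and 6.91. All 5 combination tumours were above the placebo mean and 1 was above every placebo tumour. The 5 lowest values of the study came from bright-control arrays, whose mean was 6.28 against 7.11 on the others. Combination minus placebo was 0.43 ± 0.31 (SE; 95% interval -0.21 to 1.08), and 0.13 on the 15 other arrays.

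Tgfbi, a secreted matrix protein induced by TGF-beta, gave the largest difference among the 9 between the combination and the anti-PD1 arm. In placebo it was 7.54 at the lowest, 8.51 at the median and 9.51 at the highest. Under anti-PD1 it was 7.05, 7.65, 7.72, 8.80 and 7.46 in mice 1 to 5. In the combination arm it was 8.20, 8.95, 8.52, 8.98 and 9.02. All 5 combination tumours were above the anti-PD1 mean and 3 were above every anti-PD1 tumour, the overlap being anti-PD1 mouse 4 with combination mice 1 and 3. The lenvatinib arm read 7.23, 7.90, 8.09, 8.09 and 9.88, mouse 5 being the highest of the study.

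Combination minus anti-PD1 for Tgfbi was 1.00 ± 0.41 (SE; 95% interval 0.14 to 1.86), a fold of 2.00. The unadjusted p was 0.0248 and the adjusted p 0.5 by limma, and the exact permutation p was 0.0238. The difference was 0.96 on the 15 other arrays, with an adjusted p of 0.26 by limma. Leaving out each mouse in turn gave 0.83 to 1.26. Anti-PD1 minus placebo was -0.76 ± 0.40 (SE; 95% interval -1.58 to 0.06), with 4 of 5 tumours below the placebo mean, and lenvatinib minus placebo was -0.26 ± 0.40. The latter was -0.15 on the 15 other arrays, and it ranged from -0.67 without lenvatinib mouse 5 to -0.0036 without lenvatinib mouse 1. Combination minus placebo was 0.24 ± 0.40, less than the SD within either arm. It was 0.029 on the 15 other arrays, and it ranged from 0.049 without placebo mouse 6 to 0.44 without placebo mouse 3. The interaction, which asks whether the agents add up on the log2 scale, was 1.25 ± 0.57 (SE; 95% interval 0.07 to 2.44), with an unadjusted p of 0.0397 and an adjusted p of 0.521 by limma. These comparisons share arms and are not independent of each other.

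**Figure D2:**
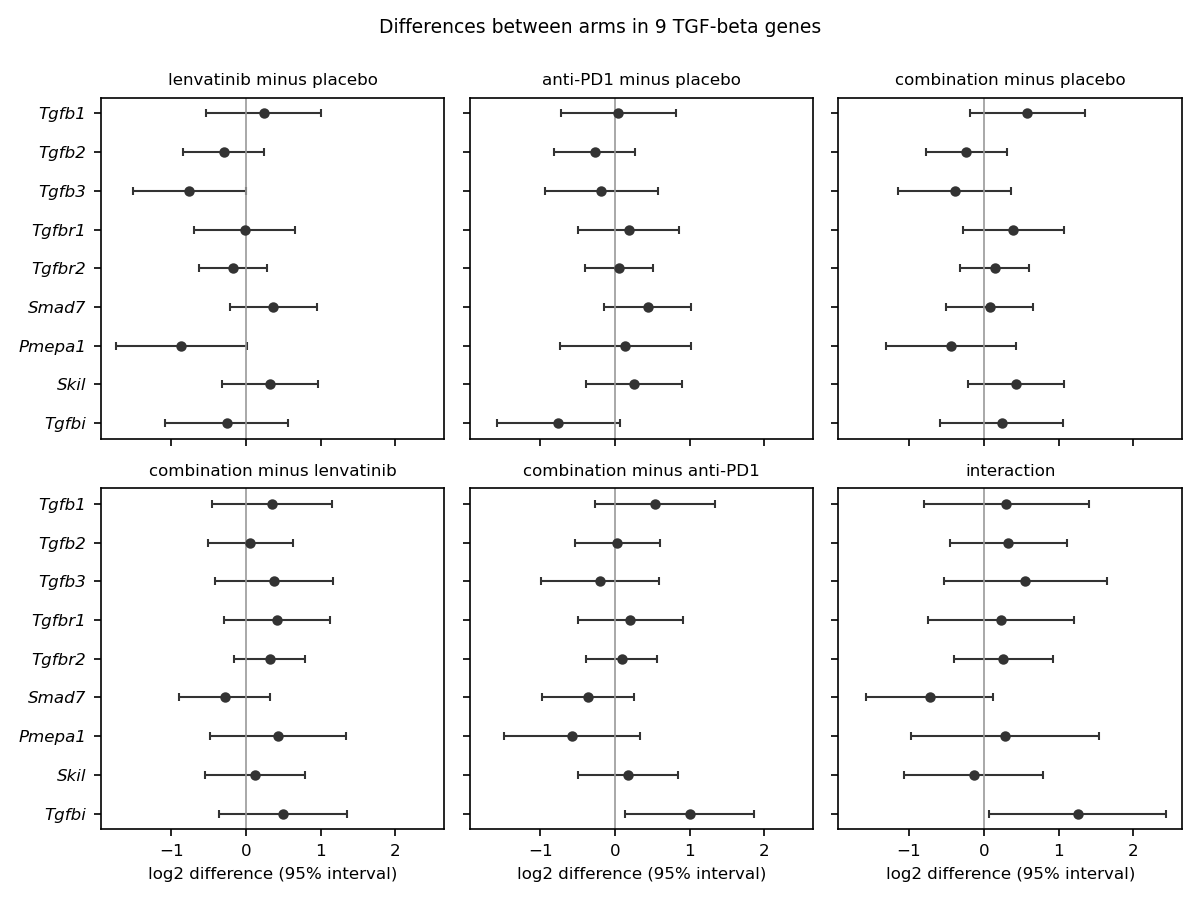
Log2 difference of the 9 genes (rows) in 5 pairs of arms and in the interaction, from the limma fit over 21 arrays, with 95% intervals (horizontal axis, log2 units). The intervals of Tgfbi lie above 0 in combination minus anti-PD1 (0.14 to 1.86) and in the interaction (0.07 to 2.44); they are not adjusted for the number of probe sets.

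Immune markers lay on the same side as Tgfbi between these arms. In combination minus anti-PD1, 9 of 9 measured macrophage markers were above 0, with a median of 1.40, against 48.1% of all probe sets and a median of -0.01. For T cells the count was 8 of 8 with a median of 1.62, and for regulatory T cells 5 of 7 with a median of 0.87. Foxp3 was not among these 7. Tnfrsf4 was 1.45, Ctla4 1.38, Ccr8 0.90, Tnfrsf18 0.87 and Ikzf2 0.28, with Il2ra at -0.21 and Ikzf4 at -0.29. In anti-PD1 minus placebo 9 of 9 macrophage markers and 8 of 8 T cell markers were below 0, with medians of -1.06 and -0.90, against 50.4% of probe sets. The macrophage markers were also 9 of 9 below 0 in lenvatinib minus placebo (50.9% of all probe sets), with a median of -0.69. They were 9 of 9 above 0 in combination minus lenvatinib (48.8%), with a median of 0.95. The T cell markers too were all below 0 in lenvatinib minus placebo and all above 0 in combination minus lenvatinib (Cd3e -0.78 and 1.46). In combination minus anti-PD1 all measured dendritic cell, neutrophil and B cell markers were above 0 as well. None of these markers passed an adjusted p of 0.05 by limma in any of the comparisons. The macrophage score, the mean of its markers after centring each over the 21 tumours, ranged from -1.52 to 0.43 under anti-PD1 and from -0.64 to 1.39 in the combination. The regulatory T cell score ranged from -0.70 to 0.16 and from -0.31 to 0.68. One regulatory T cell marker had a mean below the negative-control median. In bulk tissue, fewer cells of a type and less RNA per cell cannot be told apart, and the part of these cells in the Tgfbi difference was not tested.

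Across the 21 tumours Tgfbi was higher where the regulatory T cell score, which lacks Foxp3, was higher, with a Pearson r of 0.867 and a Spearman rho of 0.878. The adjusted permutation p was 0.00101 for r and 0.00054 for rho, over 135 relations of the 9 genes with 15 marker scores, and the raw p of 1e-05 was the smallest that the resampling can give. It was 0.888 without the 2 tumours farthest from the median score and 0.830 after subtracting arm means. Within the 15 other arrays r was 0.905, and within the 6 bright-control arrays 0.367. For the macrophage score r was 0.782 and rho 0.813, with adjusted permutation p of 0.00118 and 0.00054. That r was 0.785 without the 2 farthest tumours, 0.840 within the 15 arrays and 0.390 within the 6. The T cell score gave r of 0.725 and rho of 0.838, with adjusted permutation p of 0.00307 and 0.00054, and r of 0.786 without the 2 farthest, 0.778 within the 15 and 0.418 within the 6. The genes most like Tgfbi over the 21 tumours were Ctsc, a lysosomal protease (r = 0.931), Trpv2, an ion channel (0.894), and Tnfrsf4, which encodes OX40 and is itself in the regulatory T cell list (0.882).

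**Figure D3:**
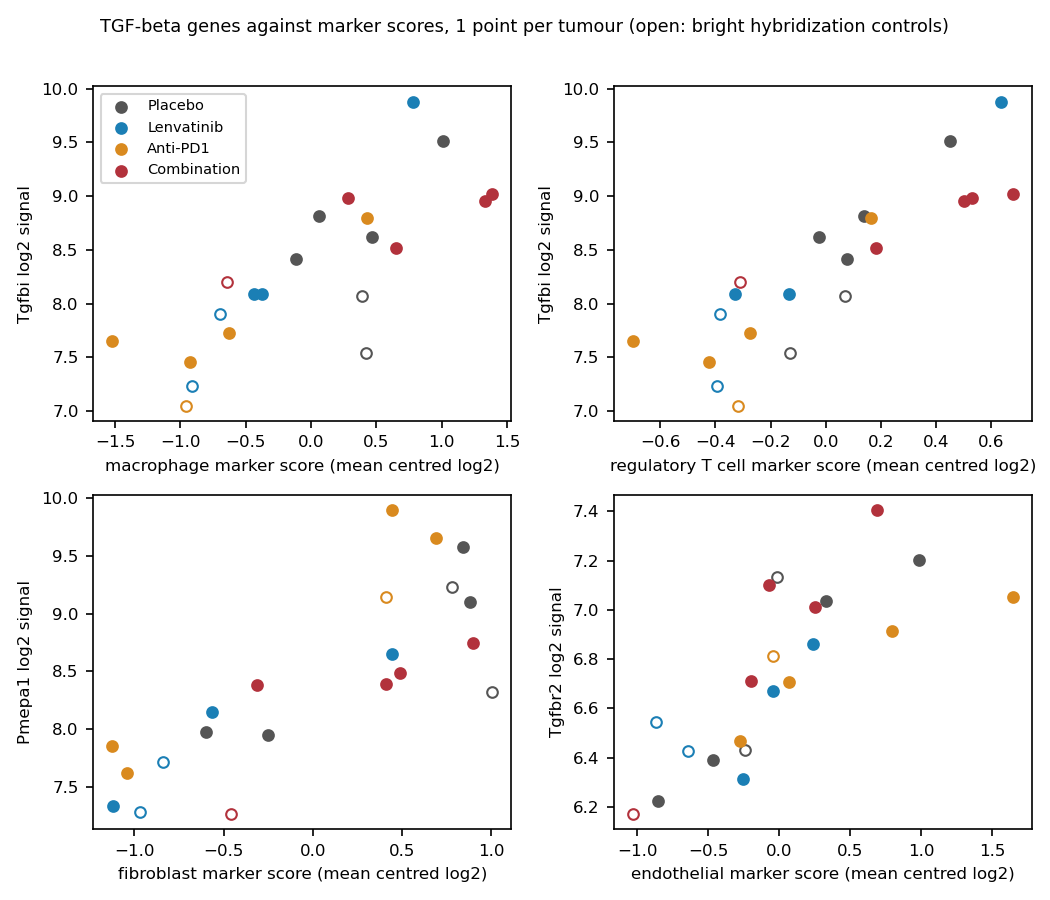
Log2 signal of Tgfbi, Pmepa1 and Tgfbr2 (vertical axes) against marker scores (horizontal axes, mean centred log2 signal), 1 point per tumour, coloured by arm and open for bright-control arrays. Tgfbi follows the macrophage and regulatory T cell scores (r = 0.782 and 0.867), Tgfbr2 follows the endothelial score (r = 0.779), and the fibroblast scores fall into 2 clusters.

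Pmepa1, Tgfb3 and Tgfbr2 varied with vessel markers, though not with these alone. Pmepa1 varied as closely with the adipocyte score, given under other observations, and differed between the fibroblast clusters described next. With the endothelial score Pmepa1 had an r of 0.777 and a rho of 0.762, with adjusted permutation p of 0.00101 and 0.00253. That r was 0.699 without the 2 farthest tumours, 0.789 within the 15 other arrays and 0.868 within the 6 bright-control ones. Tgfbr2, which endothelial cells express, had an r of 0.779 and a rho of 0.844 with the same score, with adjusted permutation p of 0.00118 and 0.00054. Its r was 0.813 without the 2 farthest, 0.763 within the 15 and 0.797 within the 6. Tgfb3 had an r of 0.736 and a rho of 0.600 with adjusted permutation p of 0.00118 and 0.0308, and r of 0.583 without the 2 farthest, 0.702 within the 15 and 0.585 within the 6. Pmepa1 also followed the pericyte score, with r of 0.756, rho of 0.664 and adjusted permutation p of 0.00118 and 0.0147, and r of 0.696, 0.745 and 0.778 in the same 3 subsets. Against the hepatocyte lineage score Pmepa1 had an r of -0.692 and a rho of -0.745, with adjusted permutation p of 0.00685 and 0.00253, and r of -0.571, -0.721 and -0.741 in those subsets.

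The fibroblast scores fell into a lower cluster of 10 tumours, from -1.12 to -0.25, and an upper cluster of 11, from 0.41 to 1.00, so no r over all tumours is given. The lower cluster held 4 of 5 lenvatinib, 2 of 5 anti-PD1, 2 of 5 combination and 2 of 6 placebo tumours. Pmepa1 ran from 7.27 to 8.38 (median 7.78) in the lower cluster and from 8.32 to 9.90 (median 9.10) in the upper. Tgfb3 ran from 6.40 to 7.88 (median 7.13) in the lower and from 7.05 to 8.98 (median 7.86) in the upper. Within the lower cluster Tgfb3 had an r of 0.762 with the score and Pmepa1 0.529, and within the upper cluster 0.217 and -0.029. These values are given as a description. Skeletal muscle scores also fell into separate clusters and are left out. In lenvatinib minus placebo, where Tgfb3 and Pmepa1 had their lower means, 10 of 10 fibroblast markers were below 0 with a median of -1.08, against 50.9% of all probe sets. The same count was 8 of 8 with a median of -0.13 for pericytes, 6 of 10 with a median of -0.04 for endothelial cells, and 7 of 7 with a median of -1.73 for adipocytes. The 9 measured hepatocyte lineage markers were all above 0, with a median of 1.70. The part of these cells in the values of Tgfb3 and Pmepa1 was not tested.

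**Figure D4:**
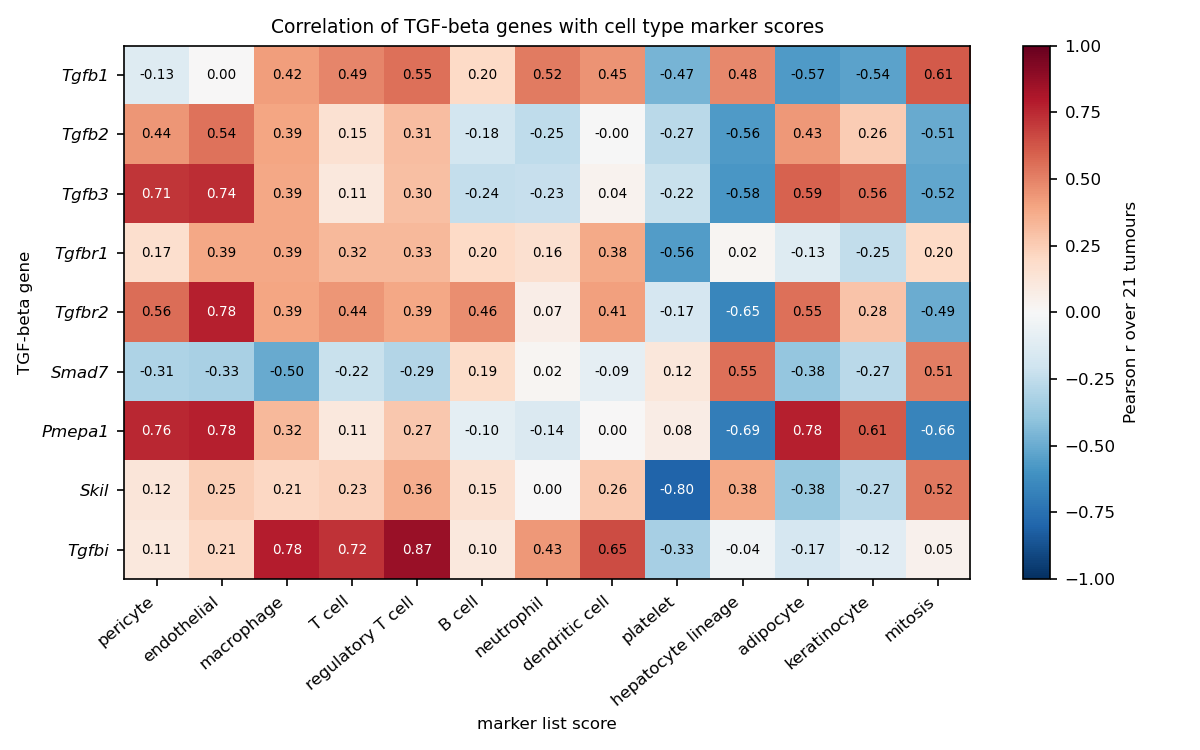
Pearson r over 21 tumours between the 9 genes (rows) and 13 marker scores (columns), without the fibroblast and skeletal muscle scores, which fall into clusters. Tgfbi is highest with regulatory T cells (0.87) and macrophages (0.78), Pmepa1 is highest with the adipocyte and endothelial scores (0.78 for each), and Tgfb3 with the endothelial score (0.74).

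Tgfb1 and Skil varied with the array set. Skil had an r of -0.800 and a rho of -0.613 with the platelet score, with adjusted permutation p of 0.00101 and 0.0303, and r of -0.611 without the 2 farthest tumours. Within the 15 other arrays r was -0.399 and within the 6 bright-control arrays -0.892, so the relation was weaker within the larger set. Tgfb1 had an r of 0.611 and a rho of 0.487 with the mitosis score, with adjusted permutation p of 0.0258 and 0.0949, and r of 0.549, 0.618 and 0.485 in the 3 subsets. In all, 32 of the 135 relations had an adjusted permutation p under 0.05 for r, and 22 for both r and rho. These counts include the fibroblast and skeletal muscle scores. The share of all probe sets that would pass was not computed, so the counts cannot be read as particular to these genes.

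Among themselves some of the genes varied together across tumours. Tgfb3 and Pmepa1 were the closest, with r of 0.840 and rho of 0.806 and an adjusted permutation p of 0.00036 for both over 36 pairs. That r was 0.792 without the 2 farthest tumours, 0.928 within the 15 other arrays and 0.626 within the 6. For pairs, the farthest tumours are those farthest from the median of 1 gene only, the one named first. Tgfb2 and Tgfb3 had an r of 0.757 and a rho of 0.821, with adjusted permutation p of 0.00108 and 0.00036, and r of 0.757, 0.733 and 0.673 in those subsets. Smad7 ran against both, with r of -0.652 for Tgfb2 and -0.561 for Tgfb3, rho of -0.578 for each, and adjusted permutation p between 0.0108 and 0.0298. Without the 2 tumours farthest from the median of Tgfb2, or of Tgfb3, these r were -0.595 and -0.583. Placebo mouse 1, the lowest for Smad7, was kept in both, and r without it was not computed. Within the 15 arrays they were -0.659 and -0.548, and within the 6 -0.276 and -0.219. Tgfb1 and Skil had an r of 0.751 and a rho of 0.757, with adjusted permutation p of 0.00132 and 0.00228. That r was 0.880 without the 2 farthest, 0.450 within the 15 and 0.647 within the 6. Tgfb1 and Tgfbi had an r of 0.648 and a rho of 0.612, with adjusted permutation p of 0.0108 and 0.0201, and r of 0.567, 0.382 and 0.701 in those subsets. Of the 36 pairs, 11 had an adjusted permutation p under 0.05 for r and 10 for both measures. How often pairs of other genes would pass was not computed.

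The 3 named genes most like each of the others over the 21 tumours are given with r and as a description. For Tgfb1 they were Arf6 (0.909), Actb (0.907) and Arpc2 (0.904). For Tgfb3 they were Map1b (0.917), Cdh1 (0.916) and Dach1 (0.904), and for Pmepa1 Kctd4 (0.937), Igfbp5 (0.926) and Rhoj (0.924). Tgfbr2 was nearest to Ldb2 (0.883), Zdhhc15 (0.864) and Dock11 (0.864), and Tgfbr1 to Csnk1g3 (0.902), Cep170 (0.898) and Taok3 (0.888). Skil was nearest to Jmjd1c (0.905), Med23 (0.897) and Flt1 (0.887). Tgfb2 was nearest to Qpct (0.824), Iqsec2 (0.798) and Trak1 (0.779), and Smad7 to Pear1 (0.773), Ccdc15 (0.755) and Mapk8ip3 (0.742).

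The rest of the pathway was read from 6 lists with 69 measured entries, none of which passed an adjusted p of 0.05 by limma in any of the 7 comparisons. Of 14 genes that store or release latent ligand, 8 were above 0 in combination minus placebo, where 49.3% of all probe sets were, with a median of 0.03. Nrros, which holds latent TGF-beta on macrophages and microglia, was 1.15 ± 0.48 (SE) higher in the mean of the combination than of lenvatinib, with an adjusted p of 0.78 by limma. Itgb6, a subunit of an activating integrin, was -0.55 ± 0.25 in combination minus placebo, with an adjusted p of 1. Ltbp3, a latent TGF-beta binding protein, was -0.51 ± 0.31 in combination minus lenvatinib and 0.41 ± 0.29 in anti-PD1 minus placebo, and the integrin subunit Itgb5 was -0.34 ± 0.27 in the latter. Among 8 co-receptors and SMADs, 7 were above 0 in anti-PD1 minus placebo, where 49.6% of probe sets were, with a median of 0.25, and 6 were in combination minus placebo, with a median of 0.14. Smad3, which the type I receptor activates, had the largest difference of the 8 in anti-PD1 minus placebo. It was 0.96 ± 0.32 (SE), with an adjusted p of 0.961 by limma. The co-receptors Eng and Tgfbr3 were 1.08 ± 0.71 and 0.84 ± 0.60 in combination minus lenvatinib. The common partner Smad4 was 0.31 ± 0.28 in anti-PD1 minus placebo, and the activin receptor Acvr1b was 0.32 ± 0.27 in combination minus placebo.

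Of 10 further inhibitors of the pathway, 8 were below 0 in combination minus lenvatinib, where 51.2% of probe sets were, with a median of -0.16. In anti-PD1 minus placebo 8 of the 10 were above 0, where 49.6% of probe sets were, with a median of 0.12. Nedd4l, a ubiquitin ligase for activated SMADs, was -0.82 ± 0.38 (SE) in combination minus lenvatinib, with an adjusted p of 0.78 by limma. It was 0.48 ± 0.36 in anti-PD1 minus placebo. The pseudoreceptor Bambi was -0.32 ± 0.19 in anti-PD1 minus placebo and -0.25 ± 0.19 in combination minus placebo, and the inhibitory Smad6 was -0.19 ± 0.16 in the latter. Among 11 other direct targets 6 were above 0 in combination minus placebo (49.3% of all probe sets) with a median of 0.02. In anti-PD1 minus placebo 8 were above 0 (49.6%), with a median of 0.12. In lenvatinib minus placebo, where 50.9% of probe sets were below 0, 8 were above 0, with a median of 0.33. In combination minus placebo Nox4, an oxidase induced by TGF-beta, was -0.75 ± 0.39, and Itgae, the CD103 chain of tissue-resident T cells, was 0.45 ± 0.23 at means of 3.19 in placebo and 3.64 in the combination, both below the negative-control median. The matricellular gene Ccn2 was 0.41 ± 0.24 in anti-PD1 minus placebo and -0.40 ± 0.25 in combination minus lenvatinib, where the cell cycle inhibitor Cdkn2b was -0.73 ± 0.39. Of 8 related ligands 6 were below 0 in combination minus placebo, where 50.7% of probe sets were, with a median of -0.14. Inhbb, an activin subunit, was -0.38 ± 0.14 there, with an adjusted p of 1 by limma, and Bmp2 was -0.76 ± 0.25 in combination minus lenvatinib, with an adjusted p of 0.78. Bmp4, a related bone morphogenetic protein, was 0.74 ± 0.51 in anti-PD1 minus placebo and -1.07 ± 0.53 in combination minus lenvatinib.

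The list of genes that TGF-beta induces in fibroblasts had its lowest median, -0.50, in lenvatinib minus placebo, where 11 of 18 were below 0 and 50.9% of all probe sets were. The smooth muscle gene Tagln was -0.93 ± 0.32 (SE) there and -0.74 ± 0.32 in combination minus placebo, with adjusted p of 0.693 and 1 by limma. Acta2, the smooth muscle actin of activated fibroblasts, was -0.67 ± 0.35 in combination minus placebo. In anti-PD1 minus placebo 10 of the 18 were above 0 (49.6% of all probe sets), with a median of 0.05. In combination minus placebo 6 were (49.3%), with a median of -0.16. In lenvatinib minus placebo the other members with an unadjusted p under 0.05, chosen after their values were seen, were Cnn1 (-1.62 ± 0.72), Hspb1 (-1.47 ± 0.64), Adam12 (-1.08 ± 0.45) and Igfbp3, which lay the other way (1.55 ± 0.62). Of all probe sets 6.97% had such a p by limma there. The 10 of 10 fibroblast markers below 0 in that comparison are given above, and their part in this list was not tested.

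**Figure D5:**
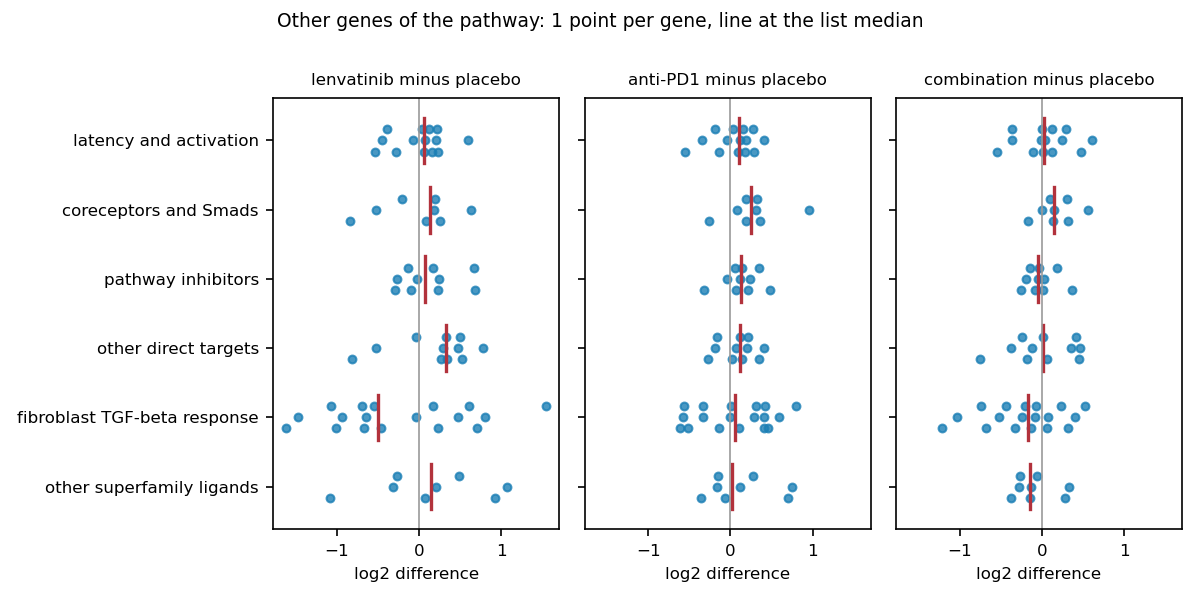
Log2 difference from placebo (horizontal axis) of the genes in 6 lists of the pathway (rows) for lenvatinib, anti-PD1 and the combination, 1 point per gene with a line at the list median. The medians lie within 0.33 of 0 apart from the fibroblast response list under lenvatinib, at -0.50.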

How the data were processed

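Gene expression was measured in 21 tumours, 1 Clariom S mouse array per mouse, and the mice are separate animals. The submitters' processing notes name RMA and oligo, without versions, and the deposited file holds log2 signals. RMA subtracts background, gives every array 1 distribution and summarizes probes, so it hides shifts common to most genes. Genome build and annotation: not given in the sources used here. The table had 29129 rows, of which 6923 are controls and 22206 probe sets were tested without a filter on low signal; 19572 had 1 symbol and 2634 are unnamed here. Precision is limited by the number of arrays.

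limma 3.58.1 (statmod 1.5.0, R 4.3.3; lmFit and eBayes) fitted 4 arm means over 21 arrays with 7 contrasts, 6 pairs and the interaction; p-values were two-sided and Benjamini-Hochberg adjusted over all probe sets, threshold 0.05. The fit was tested on simulated data. Exact permutation tests and correlations (100000 resamples, two-sided) used SciPy 1.17.1 in Python 3.11.15. Marker and pathway lists used the probe set with the highest mean for a gene. The genes, lists and tests were chosen with earlier results of these data known. The naming rule took the 9 genes, the 3 named probe sets most like each, and from each pathway list the genes past the threshold or else the 2 with the smallest p in 3 comparisons (combination against placebo and against lenvatinib, anti-PD1 against placebo). Alternatives were cyclic loess, probe sets above the 40th percentile in mean signal only, trend and robust eBayes, array weights, only the 2 arms compared, mouse number as a block, the mean hybridization control as a covariate, only the 15 arrays whose controls were not bright, an adjusted p under 0.1, the mean of a gene's probe sets, and leaving out each mouse in turn. RefSeq sequences are of GRCm38.p6, and no genome was used.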

Additional observations from a re-analysis of the deposited data

Results flagged for a closer look

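In 36 groups, 9 genes in 4 arms, 2 tumours stood apart from the others of their arm by Dixon's criterion, which chance meets in about 1 in 20 groups. Smad7 in placebo mouse 1 was 3.97 on the log2 scale, below the negative-control median of 4.08, while the other 5 placebo tumours lay at 5.04 or above. Pmepa1 in combination mouse 1, whose array had bright hybridization controls, was 7.27, while the other 4 combination tumours lay at 8.38 or above.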

How the results depend on the processing

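Of 1881 alternative values of the 63 differences (9 genes, 7 contrasts), 1801 kept their direction and 80 reversed it. Many of the 1801 could not have reversed, so this count does not measure robustness. Leaving out a mouse of an arm outside the pair leaves a pairwise difference unchanged. Tgfbi in lenvatinib minus placebo, for example, stayed at -0.2559 whichever anti-PD1 or combination mouse was left out. The filter on mean signal, trend and robust eBayes, and the fit of only the arms compared also leave the differences unchanged. Of the 63 differences, 39 never reversed, among them the Tgfbi, Tgfb3 and Pmepa1 differences with an unadjusted p under 0.05. None passed an adjusted p of 0.05 by limma under any of the 30 settings, the smallest being 0.12. The cause of each change below was not tested. Counts of called probe sets, 0 throughout in the reported fit, were 707 for combination minus lenvatinib, 504 for combination minus anti-PD1, 1691 for the interaction and 142 for the F test with array weights, and 233 for combination minus anti-PD1 without the bright-control arrays. Leaving out each mouse gave 0 to 320 for the interaction (81 without lenvatinib mouse 5, 7 without anti-PD1 mouse 4, 320 without combination mouse 1), 0 to 338 for combination minus anti-PD1 (87 without anti-PD1 mouse 4, 338 without combination mouse 1) and 0 to 1 for combination minus lenvatinib (1 without combination mouse 1).

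Reversed with cyclic loess were Tgfbr1 in lenvatinib minus placebo (0.010) and Tgfb2 in lenvatinib minus anti-PD1 (0.014). With array weights they were Tgfbr1 in lenvatinib minus placebo (0.40), Tgfbr2 and Pmepa1 in anti-PD1 minus placebo (-0.024 and -0.21) and Smad7 in combination minus placebo (-0.029). They were also Tgfb1, Tgfb2 and Skil in combination minus lenvatinib (-0.024, -0.13 and -0.089), Tgfb3, Tgfbr1 and Skil in combination minus anti-PD1 (0.033, -0.074 and -0.084), Tgfb2 in lenvatinib minus anti-PD1 (0.23), and Tgfb1 and Tgfbr1 in the interaction (-0.22 and -0.47). With the hybridization control covariate they were Tgfb1 in anti-PD1 minus placebo (-0.044) and Tgfb2 in lenvatinib minus anti-PD1 (0.013). Without the bright-control arrays they were Tgfbr1 in lenvatinib minus placebo (0.59), Tgfb1 in anti-PD1 minus placebo (-0.15), Tgfb1, Tgfb2 and Skil in combination minus lenvatinib (-0.12, -0.18 and -0.12), Tgfb2 and Skil in combination minus anti-PD1 (-0.035 and -0.11), Tgfb2 and Smad7 in lenvatinib minus anti-PD1 (0.15 and 0.074), and Tgfbr1 in the interaction (-0.58).

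With mouse number as a replicate block, Tgfbr1 in lenvatinib minus placebo (0.081) and Tgfb1 in anti-PD1 minus placebo (-0.12) reversed, and 0 probe sets were called in any contrast. The numbers do not pair the mice: deviations of 30 same-number pairs correlated at -0.635 to 0.562, and 3 of 21 mice correlated best with their own number.

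Leaving out each mouse gave ranges that span 0 for 21 differences. In anti-PD1 minus placebo they were -0.13 to 0.44 for Pmepa1, -0.22 to 0.29 for Tgfb1, -0.50 to 0.019 for Tgfb3, -0.021 to 0.50 for Tgfbr1 and -0.048 to 0.15 for Tgfbr2. In combination minus anti-PD1 they were -0.13 to 0.38 for Skil, -0.17 to 0.22 for Tgfb2, -0.41 to 0.11 for Tgfb3, -0.11 to 0.42 for Tgfbr1 and -0.041 to 0.27 for Tgfbr2. In lenvatinib minus anti-PD1 they were -0.25 to 0.27 for Skil, -0.23 to 0.10 for Smad7, -0.055 to 0.47 for Tgfb1, -0.23 to 0.16 for Tgfb2 and -0.52 to 0.043 for Tgfbr1. In the interaction they were -0.019 to 0.55 for Pmepa1, -0.45 to 0.067 for Skil and -0.089 to 0.44 for Tgfbr1. The others were Smad7 in combination minus placebo (-0.12 to 0.24), Tgfb2 in combination minus lenvatinib (-0.082 to 0.17) and Tgfbr1 in lenvatinib minus placebo (-0.16 to 0.23).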

Other observations

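Tgfbi also followed the dendritic cell score over the 21 tumours, with r of 0.649 and rho of 0.684 and adjusted permutation p of 0.013 and 0.0108. That r was 0.663 without the 2 tumours farthest from the median score, 0.708 within the 15 arrays without bright hybridization controls and 0.742 within the 6 with them. Pmepa1 followed the adipocyte score, with r of 0.781, rho of 0.761 and adjusted permutation p of 0.00148 and 0.00285, and r of 0.712, 0.796 and 0.882 in those subsets. Pmepa1 was lower where mitosis genes were higher, with r of -0.662, rho of -0.649 and adjusted permutation p of 0.0125 and 0.0171, and r of -0.531, -0.762 and -0.822. Tgfbr2 was lower where hepatocyte lineage genes were higher, with r of -0.651, rho of -0.691 and adjusted permutation p of 0.0141 and 0.0106, and r of -0.581, -0.696 and -0.736.

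Chosen after their values were seen, 4 further genes of the 69 pathway entries had an unadjusted p under 0.05 by limma in lenvatinib minus placebo. Of all probe sets 6.97% did. The fibroblast response genes that also passed there are given above. Each of the 4 had an adjusted p of 0.693 by limma. Bhlhe40, a transcription factor, was 0.78 ± 0.33 (SE) and the oxidase Nox4 -0.82 ± 0.39. The activin subunit Inhbb was -0.32 ± 0.14 and the BMP-family ligand Gdf10 -1.09 ± 0.49.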
